A study of Mus musculus with 8 samples.

Results

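Imprinted genes are the subject here, measured in mouse embryonic stem (ES) cells that received an esiRNA against Ctr9 or a control esiRNA against luciferase. Of 44 genes listed as imprinted in the mouse, 40 could be read on the array, out of 18193 genes with a probe set that carries 1 gene symbol in the platform annotation. A gene with several probe sets was read by the one with the highest mean signal. The probe set of H19, the noncoding RNA next to Igf2, carries several symbols and was not used here, and Rtl1, Dio3 and Zrsr1 were not analysed here because no probe set was found under their symbols. By the allele usually expressed in the mouse, 19 of the measured genes are paternal and 20 maternal, and Gnas gives rise to imprinted transcripts of both alleles.

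An imprinted gene is transcribed mainly from the copy inherited from 1 parent. The choice is set by DNA methylation that egg or sperm places on imprinting control regions and that survives the reprogramming of the early embryo, where Zfp57 and Trim28 protect it at CG-rich sequence. Imprinted genes lie in clusters that often pair protein-coding genes with a long noncoding RNA, and many act on fetal and placental growth, paternally expressed genes such as Igf2 often promoting it and maternally expressed genes such as Cdkn1c, Phlda2, Grb10 and Igf2r often restraining it. Imprints are known to be unstable in cultured ES cells.

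All cells carried the strain label Oct4-Gip, were at passage 25 and were taken on day 4 of the lipofection experiment. The control group is 4 arrays with luciferase esiRNA, and the other group is 4 arrays with Ctr9 esiRNA, Ctr9 being a scaffold subunit of the Paf1 complex that accompanies RNA polymerase II. esiRNAs are mixtures of many short interfering RNAs cut by an RNase from a long double-stranded RNA. The labels do not say whether the 4 samples of a group were separate cultures or whether the line is 1 clone, so the p-values speak for the spread among these arrays alone, and that spread may be technical. The comparison asks which imprinted genes differ between the 2 treatments. Signals are deposited log2 values, and a difference is the mean of the Ctr9 esiRNA arrays minus the mean of the luciferase esiRNA arrays. A gene was called where limma's Benjamini-Hochberg adjusted p over all 45037 probe sets tested was below 0.05, and rose or fell is written only of called genes.

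The arrays had medians from 5.736 to 5.762 on the log2 scale, correlated at 0.9975 to 0.9982 within a group and at 0.9924 to 0.994 between groups. Luciferase arrays 1 and 2 lay apart from luciferase arrays 3 and 4 on the second principal component, which held 8.93% of the variance, so counts are also given without each pair. The 5 Ctr9 probe sets did not give 1 direction for the targeted transcript. The brightest was at 10.12, 10.18, 10.21 and 10.26 with luciferase esiRNA and 10.09, 10.13, 10.13 and 10.07 with Ctr9 esiRNA, a difference of -0.09 (SE 0.0466, limma adjusted p = 0.209). The next in brightness were called lower, by 0.15 and 0.18, but a dimmer one was called higher (0.29, limma adjusted p = 0.0228). The dimmest probe set, at 0.27, did not pass. These values do not settle whether Ctr9 RNA was reduced, and the groups below are named by their labels alone. All 10 ES cell markers checked were above the median probe set signal of 5.751. Their list mean was 12.7 to 12.74 in the luciferase arrays and 12.51 to 12.54 in the Ctr9 esiRNA arrays. Of the 10, 5 fell and 1 rose, where 21.2% of genes above the median signal were called lower and 20.9% higher. Esrrb (-1.10), Zfp42 (-0.46), Nanog (-0.44), Dppa4 (-0.26) and Pou5f1 (-0.20) fell while Lin28a rose (0.79). Sox2 (-0.11), Dppa5a (-0.09), Utf1 (-0.03) and Tdgf1 (0.01) were not called. In bulk RNA, fewer cells that express a gene and less of its RNA per cell cannot be told apart, and the probe sets read both alleles together, so the allele given for a gene is its known one and was not measured.

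Most of the imprinted genes were higher with Ctr9 esiRNA. Of the 40 measured, 24 rose (60.0%), 4 fell (10.0%) and 12 were not called. Over all 18193 genes, 15.8% were called higher and 15.0% lower. The median difference of the imprinted genes was 0.33, against 0.0036 over all genes. Values of the 2 groups did not overlap for 29 of them, namely all 28 called ones and Nap1l4, against 36.6% of all genes. At least 2-fold changes were called for 8, all of them rises, against 1.34% of all genes in either direction. The rises belonged to Igf2, Cdkn1c, Calcr, Nnat, Peg10, Rian, Dlk1 and Sgce. Without luciferase arrays 1 and 2 the counts were 22 higher and 4 lower, and without arrays 3 and 4 they were 24 higher and 3 lower.

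**Figure D1:**
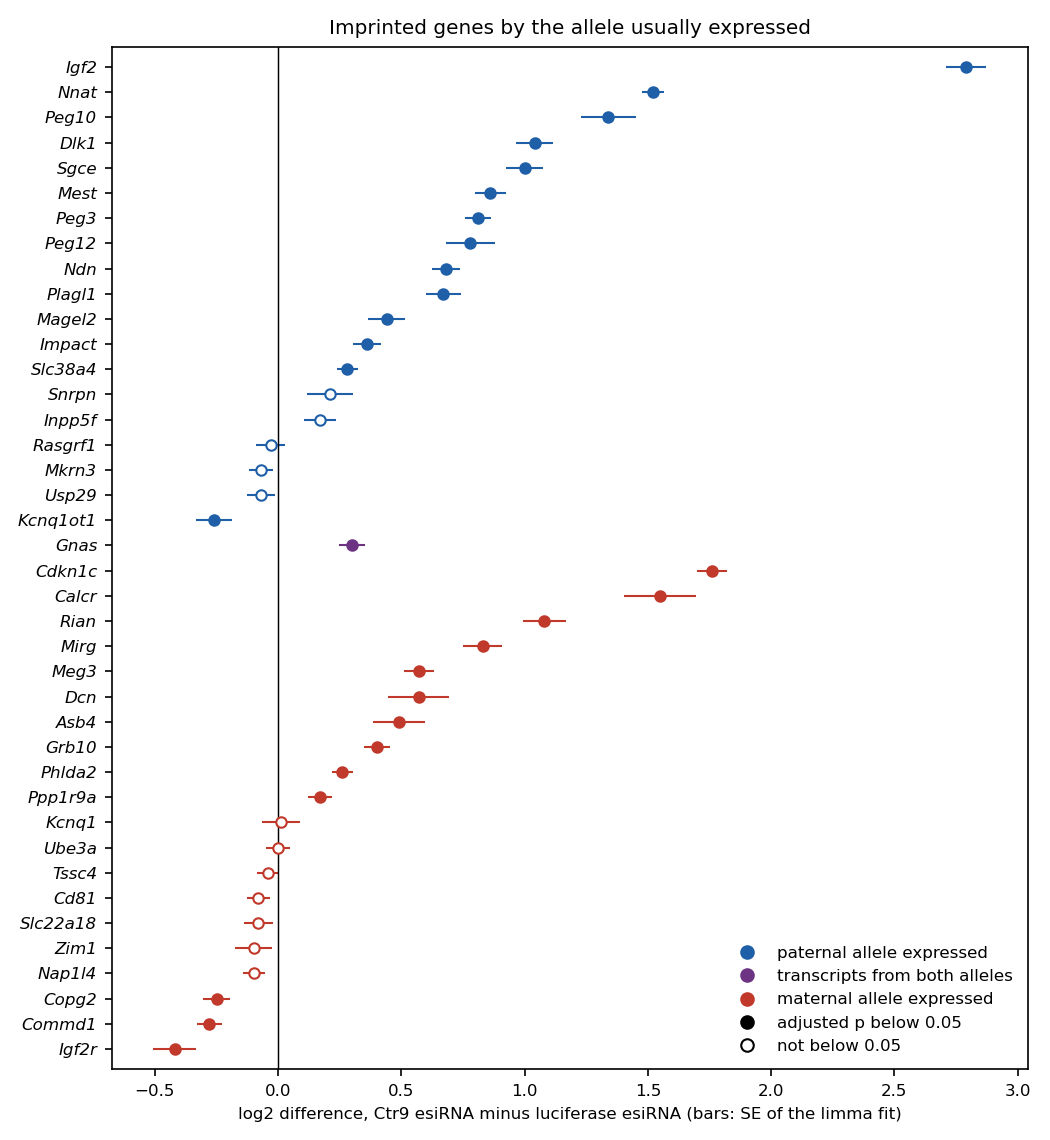
Log2 difference (horizontal axis, Ctr9 esiRNA minus luciferase esiRNA, 4 arrays each) of the 40 measured imprinted genes, grouped by the allele usually expressed; bars are the SE of the limma fit and filled points have an adjusted p below 0.05. Igf2 stands at 2.79, 13 of 19 paternal and 10 of 20 maternal genes are called higher, and the lowest point is Igf2r at -0.42.

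Both ligands rose. Igf2 encodes an insulin-like growth factor that drives embryonic growth and is expressed from the paternal allele. Its signal was 8.72, 8.57, 8.97 and 8.66 in the 4 luciferase arrays and 11.44, 11.61, 11.47 and 11.54 in the 4 Ctr9 esiRNA arrays. The groups lay far apart, with a difference of 2.79 (SE 0.0815, limma adjusted p = 4.33e-08), a 6.89-fold rise. A second, dim Igf2 probe set went from a mean of 3.9 to 4.64, a rise of 0.74. Dlk1, the paternally expressed Notch-like ligand that restrains adipocyte differentiation, read 6.31 in each of the 3 luciferase arrays with a value and 7.39, 7.37, 7.17 and 7.49 with Ctr9 esiRNA. Every Ctr9 esiRNA array lay above the controls with a value (1.04, SE 0.0751, limma adjusted p = 1.41e-05, n = 3 against 4). What the empty control value would have read is unknown, and the SD of the others, 0.00521, may understate the spread. The second Dlk1 probe set, near 4.1 in both groups, was not called (0.07). Upstream sequences of both genes are shown with CG dinucleotides, where DNA methylation is placed, in capitals. No methylation was measured, and these windows were not chosen as imprinting control regions. They are 250 bases before the RefSeq transcript start (GRCm38.p6), for Igf2 before the start with the most CG of its 4, and hold 22 CG for Igf2 and 8 for Dlk1.
Igf2, chr7:142658805-142659054, minus strand: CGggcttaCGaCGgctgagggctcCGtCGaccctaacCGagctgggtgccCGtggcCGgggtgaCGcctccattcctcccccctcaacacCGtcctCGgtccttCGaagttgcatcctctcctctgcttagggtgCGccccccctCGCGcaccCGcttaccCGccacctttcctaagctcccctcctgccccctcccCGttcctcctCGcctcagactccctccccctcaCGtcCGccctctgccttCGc
Dlk1, chr12:109452573-109452822, plus strand: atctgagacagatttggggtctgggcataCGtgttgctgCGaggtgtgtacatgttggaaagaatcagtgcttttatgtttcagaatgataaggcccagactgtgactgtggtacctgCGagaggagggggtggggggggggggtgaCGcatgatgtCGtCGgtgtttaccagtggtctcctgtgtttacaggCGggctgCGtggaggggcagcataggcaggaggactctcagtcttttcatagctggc

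The receptors went in opposite directions. Calcr, the calcitonin receptor gene at the Peg10-Sgce cluster, is maternally expressed in a limited set of tissues. It read 4.45, 4.71, 4.49 and 4.28 with luciferase esiRNA and 6.28, 5.73, 5.79 and 6.34 with Ctr9 esiRNA. The groups did not overlap (1.55, SE 0.146, limma adjusted p = 3.72e-05), although the control signals were below the array medians, where these values compress differences. Igf2r, the maternally expressed receptor that takes up and clears Igf2, read 9.22, 9.24, 8.89 and 8.94 with luciferase esiRNA and 8.67, 8.58, 8.6 and 8.76 with Ctr9 esiRNA. It fell by 0.42 (SE 0.0866, limma adjusted p = 0.00521), and its second probe set also fell (-0.18). Airn, the paternal noncoding RNA that overlaps Igf2r in antisense and silences it in cis, rose from a dim mean of 4.93 to 5.17 (0.24, limma adjusted p = 0.0205).

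Of the genes that restrain growth, Igf2r fell, as above, while Cdkn1c, Ndn, Grb10 and Phlda2 rose. Cdkn1c, the maternally expressed cyclin-dependent kinase inhibitor p57Kip2, read 8.74, 8.67, 8.87 and 8.9 with luciferase esiRNA and 10.6, 10.55, 10.47 and 10.59 with Ctr9 esiRNA. No values overlapped, and the difference of 1.76 (SE 0.0616, limma adjusted p = 9.53e-08) was a 3.38-fold rise. Ndn, the paternally expressed necdin gene, read 9.55, 9.65, 9.47 and 9.47 against 10.24, 10.14, 10.21 and 10.27. The gap between the groups was wider than the spread in either (0.68, SE 0.0564, limma adjusted p = 1.64e-05). Grb10, the adaptor that restrains insulin and IGF receptor signalling, rose by 0.40 (SE 0.0517, limma adjusted p = 0.00029), with all 3 of its probe sets called. Phlda2, which limits placental growth, read 10.58 to 10.61 with luciferase esiRNA and 10.81 to 10.91 with Ctr9 esiRNA, a small rise of 0.26 with groups that did not overlap.

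Of the 4 long noncoding RNAs, the 3 of the Dlk1-Dio3 cluster rose. Meg3, also called Gtl2, read 10.41, 10.27, 10.37 and 10.21 with luciferase esiRNA and 10.78, 10.94, 10.95 and 10.86 with Ctr9 esiRNA (0.57, SE 0.061, limma adjusted p = 9.41e-05). Rian, the host of C/D small nucleolar RNAs, read 8.84, 8.82 and 8.83 in the 3 luciferase arrays with a value and 9.69, 9.88, 9.96 and 10.09 with Ctr9 esiRNA (1.08, SE 0.086, limma adjusted p = 2.55e-05). Mirg, the host of a microRNA cluster, read 7.57, 7.21, 7.48 and 7.44 against 8.23, 8.38, 8.21 and 8.22 (0.83, SE 0.0782, limma adjusted p = 3.69e-05). All 3 are maternal transcripts, and in none did the groups overlap, for Rian among the arrays with a value. The SD of the Rian controls left was 0.00731, which may understate their spread. Kcnq1ot1, the paternal RNA that silences its neighbours at the Kcnq1 cluster, went the other way, reading 7.15, 7.3, 7.45 and 7.37 against 6.94, 7.14, 7.02 and 7.15. It fell by 0.26 (SE 0.0735, limma adjusted p = 0.0283), with groups close to touching. That call was lost without luciferase replicate 2, 3 or 4 or Ctr9 esiRNA replicate 1 or 3 (limma adjusted p 0.0536 to 0.0785), or without luciferase arrays 3 and 4 together (0.209), and with the mean of its 6 probe sets the difference was -0.01 (limma adjusted p = 0.853).

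Several of these transcripts carry microRNAs. Hosts were sought in RefSeq (GRCm38.p6) only among the 33 measured imprinted genes with an upstream window there. Of these, 7 host microRNAs, and 6 of the hosts rose: Igf2, Calcr, Rian, Mest, Mirg and Meg3. Among all 33 searched 19 rose, and over all genes 15.8% were called higher. Rian, Mirg and Meg3 share the Dlk1-Dio3 cluster. The 6 hosts that rose hold 36 mature microRNAs in all, 19 of them in Mirg. The exception, Usp29, was not called. The microRNAs themselves were not measured on this array. Mature sequences from each of the 6 hosts are shown 5′ to 3′ because the seed, bases 2 to 8 in capitals, sets which transcripts a microRNA can pair with. Among the 38 hosted microRNAs there were 37 distinct seeds, and the pair that shares GGUUGCC, miR-453 and miR-496a-5p, is from Mirg.
miR-483-5p (Igf2), chr7:142654968-142654989, minus strand: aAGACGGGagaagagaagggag
miR-483-3p (Igf2), chr7:142654932-142654952, minus strand: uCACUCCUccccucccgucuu
miR-489-3p (Calcr), chr6:3721922-3721944, minus strand: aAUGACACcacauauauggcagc
miR-370-3p (Rian), chr12:109618305-109618326, plus strand: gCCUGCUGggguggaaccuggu
miR-335-5p (Mest), chr6:30741314-30741336, plus strand: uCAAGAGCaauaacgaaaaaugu
miR-770-5p (Meg3), chr12:109563710-109563731, plus strand: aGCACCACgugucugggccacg
miR-410-3p (Mirg), chr12:109743764-109743784, plus strand: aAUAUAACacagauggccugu
miR-541-5p (Mirg), chr12:109742422-109742446, plus strand: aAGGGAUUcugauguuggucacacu
miR-453 (Mirg), chr12:109735669-109735692, plus strand: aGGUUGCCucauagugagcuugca
miR-496a-5p (Mirg), chr12:109739132-109739152, plus strand: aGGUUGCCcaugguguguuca

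Of 3 zinc finger transcription factor genes, both paternal ones rose. Peg3 read 9.5, 9.48, 9.61 and 9.47 with luciferase esiRNA and 10.3, 10.31, 10.25 and 10.42 with Ctr9 esiRNA (0.81, SE 0.0538, limma adjusted p = 4.09e-06). Plagl1, also called Zac1, read 9.35, 9.57, 9.7 and 9.55 against 10.25, 10.25, 10.19 and 10.17 (0.67, SE 0.0703, limma adjusted p = 7.56e-05). In both genes the lowest Ctr9 esiRNA array lay above the highest control. Zim1, a maternal gene beside Peg3, was dim and not called, at 4.64, 4.31, 4.44 and 4.36 against 4.34, 4.42, 4.25 and 4.36 (-0.10, SE 0.0733). Peg3 and the paternal peptidase gene Usp29 start back to back, and the 163 bases between their RefSeq starts, with 5 CG, are shown on the strand of Peg3 because only 1 of the 2 genes was called. Usp29 was dim and overlapping, at 4.38, 4.35, 4.33 and 4.46 with luciferase esiRNA and 4.32, 4.31, 4.42 and 4.19 with Ctr9 esiRNA (-0.07, SE 0.0584, limma adjusted p = 0.454).
Peg3 to Usp29, chr7:6730420-6730582, minus strand: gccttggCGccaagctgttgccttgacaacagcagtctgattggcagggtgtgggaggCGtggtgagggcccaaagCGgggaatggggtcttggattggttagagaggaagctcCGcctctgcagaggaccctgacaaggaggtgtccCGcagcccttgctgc

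Nnat, Mest and Sgce, all paternally expressed, rose as well. Nnat, the small membrane proteolipid neuronatin, read 7.37, 7.34, 7.32 and 7.29 with luciferase esiRNA and 8.91, 8.85, 8.79 and 8.84 with Ctr9 esiRNA. The spread within each group was small beside the difference of 1.52 (SE 0.0453, limma adjusted p = 4.49e-08), a 2.86-fold rise. Mest, an alpha/beta hydrolase family gene also called Peg1, was among the brightest imprinted genes, at 10.8, 10.79, 10.99 and 10.93 against 11.83, 11.73, 11.64 and 11.76. Its groups did not overlap (0.86, SE 0.0626, limma adjusted p = 6.75e-06). Sgce, epsilon-sarcoglycan, read 6.87, 6.82, 6.84 and 6.96 against 7.76, 7.71, 8.03 and 7.98, also without overlap (1.0, SE 0.0762, limma adjusted p = 9.42e-06), while its second, dim probe set was not called (-0.02). The upstream windows of Nnat, with 12 CG, and Mest, with 14 CG, are shown because both promoters are known to be methylated on the maternal allele. The Mest window, before 1 of its 3 starts, also holds 2 matches to TGCCGC, the motif of Zfp57, searched on both strands.
Nnat, chr2:157559828-157560077, plus strand: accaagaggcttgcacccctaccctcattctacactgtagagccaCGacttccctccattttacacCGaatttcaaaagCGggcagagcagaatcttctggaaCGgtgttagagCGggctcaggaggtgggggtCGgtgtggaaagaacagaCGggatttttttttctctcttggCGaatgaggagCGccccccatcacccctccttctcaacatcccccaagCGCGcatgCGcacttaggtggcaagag
Mest, chr6:30737800-30738049, plus strand: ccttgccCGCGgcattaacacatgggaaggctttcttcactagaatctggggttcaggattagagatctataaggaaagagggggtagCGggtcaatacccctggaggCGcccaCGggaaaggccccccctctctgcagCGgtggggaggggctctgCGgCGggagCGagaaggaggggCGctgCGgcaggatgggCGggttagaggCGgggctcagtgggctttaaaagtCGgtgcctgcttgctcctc

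The rises of Peg10, Peg12 and Dcn were of dim or moderately low signals. Peg10, a retrotransposon-derived gene needed for the placenta, read 4.72, 4.54, 4.84 and 4.28 with luciferase esiRNA and 5.95, 6.05, 5.95 and 5.78 with Ctr9 esiRNA (1.34, SE 0.11, limma adjusted p = 1.56e-05). Peg12, a Frat family gene of Wnt signalling at the Snrpn cluster, read 4.11, 4.21, 3.99 and 3.85 against 5.02, 4.63, 4.93 and 4.71 (0.78, SE 0.1, limma adjusted p = 0.000286). In neither did the groups overlap. Dcn, the proteoglycan decorin and a maternally expressed gene in the placenta, read 5.58, 5.85, 5.48 and 5.97 against 6.04, 6.37, 6.22 and 6.51 (0.57, SE 0.123, limma adjusted p = 0.00692), with the groups only just apart. Decorin is also a product of fibroblasts, which often serve as feeder cells. Of 23 fibroblast markers measured, 6 rose (26.1%) and 2 fell (8.7%), with a median difference of 0.06, against 15.8% and 15.0% of all genes. The fibroblast list mean was 5.56 to 5.66 in the luciferase arrays and 5.55 to 5.78 in the Ctr9 esiRNA arrays, and the collagen genes Col1a1 (5.34 and 5.39) and Col3a1 (4.12 and 4.11) had nearly equal means. Cdh11 (0.79), Bgn (0.75), Col5a2 (0.74), Mmp2 (0.42), Twist1 (0.41) and Col1a2 (0.24) rose. Fn1 (-0.48, with 3 Ctr9 esiRNA arrays) and Loxl1 (-0.17) fell. Their part in the result was not tested.

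**Figure D2:**
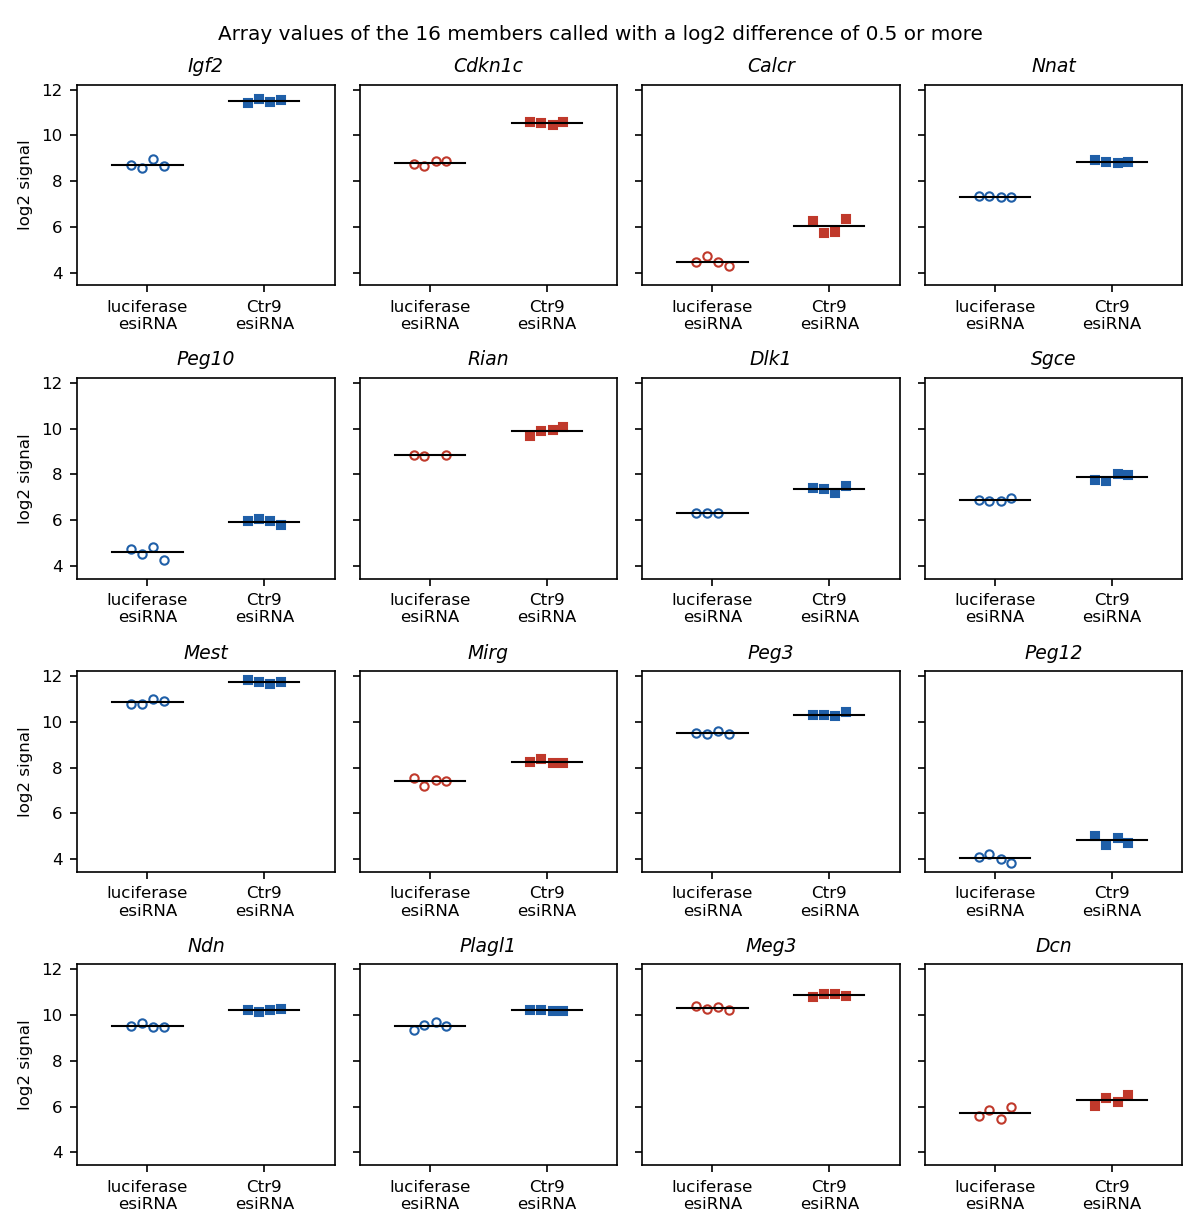
Deposited log2 signal (vertical axis) in every array for the 16 imprinted genes called with a difference of at least 0.5, open circles for luciferase esiRNA, filled squares for Ctr9 esiRNA, lines for group means, blue for paternal and red for maternal genes. In each panel the lowest Ctr9 esiRNA array lies above the highest luciferase array, most widely for Igf2 (8.97 and 11.44); Dlk1 and Rian each lack 1 luciferase value.

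The other called imprinted genes changed by less than 0.5. Asb4, a SOCS box protein gene (0.49), Magel2, a MAGE family regulator of ubiquitin ligases (0.44), Impact, an inhibitor of the kinase Gcn2 (0.36), and Slc38a4, an amino acid transporter gene (0.28), rose. A second Slc38a4 probe set, nearly as bright (mean 10.88 against 11.13), was not called (0.03, limma adjusted p = 0.8). The mean of the Slc38a4 probe sets kept the call (limma adjusted p = 0.0301). Gnas, the locus of the stimulatory G protein alpha subunit, rose by 0.30 (SE 0.0518, limma adjusted p = 0.00172). Only the brightest of 5 Gnas probe sets was called. Averaged over all their probe sets, neither Gnas (0.11, limma adjusted p = 0.0801) nor Impact (0.10, limma adjusted p = 0.216) kept its call. Asb4 lost its call without luciferase arrays 1 and 2 (0.37, limma adjusted p = 0.0754). Ppp1r9a, which encodes the actin-binding protein neurabin, rose by 0.17 (SE 0.0477, limma adjusted p = 0.0223). That call was lost without luciferase replicate 1 or 2 or Ctr9 esiRNA replicate 2 or 4 (limma adjusted p 0.0541 to 0.0626), and without luciferase arrays 1 and 2 together (0.14, limma adjusted p = 0.149). Commd1, a copper metabolism domain gene (-0.28, SE 0.0501, limma adjusted p = 0.00237), and Copg2, a coatomer subunit gene next to Mest (-0.25, SE 0.0535, limma adjusted p = 0.00627), fell. Both are maternally expressed in a limited set of tissues. Inpp5f, an inositol phosphatase gene (0.17), and Rasgrf1, a Ras exchange factor gene (-0.03), were not called.

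By parental allele, 13 of the 19 paternal genes rose and 1 fell, at a median of 0.67, and 10 of the 20 maternal genes rose and 3 fell, at a median of 0.094. The mean level of the paternal genes was 7.59 to 7.68 in the luciferase arrays and 8.25 to 8.30 in the Ctr9 esiRNA arrays, and that of the maternal genes 8.39 to 8.41 and 8.69 to 8.76. The difference between the alleles was not tested, since genes are not replicates. Among genes imprinted in many tissues, 13 of 17 paternal genes rose and 1 fell (median 0.68), and 7 of 11 maternal genes rose and 1 fell (median 0.40). Among the 9 maternal genes imprinted in few tissues, 3 rose and 2 fell (median -0.036). Neither of the 2 paternal genes imprinted in few tissues was called. Of the 32 imprinted genes brighter than the median probe set, 20 rose and 4 fell, where 20.9% of such genes were called higher and 21.2% lower. The 8 dimmer ones were Calcr, Peg10, Peg12 and Asb4, which rose, and Kcnq1, Usp29, Zim1 and Rasgrf1, which were not called.

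The clusters differed in how many of their genes moved. At Dlk1-Dio3 all 4 measured genes rose, by 0.57 to 1.08, from both parental alleles. At Peg10-Sgce all 5 rose, by 0.17 to 1.55, again from both alleles. Only 2 of those 5 were brighter than the median probe set, and the calls of Ppp1r9a and Asb4 were not kept under every alternative. At the Mest locus the paternal gene rose and the maternal neighbour Copg2 fell. The Snrpn cluster, whose loss on the paternal chromosome causes Prader-Willi syndrome in humans, was mixed: Peg12, Ndn and Magel2 rose, and 3 genes were not called. Snrpn itself, a small nuclear ribonucleoprotein gene, read 6.74, 7.04, 6.98 and 7.13 with luciferase esiRNA and 7.26, 6.97, 7.21 and 7.28 with Ctr9 esiRNA. The groups overlapped (0.21, SE 0.0933, limma adjusted p = 0.141), but without Ctr9 esiRNA replicate 2 the gene was called higher (0.28, limma adjusted p = 0.049). Mkrn3, a makorin ubiquitin ligase gene, read 7.64, 7.67, 7.73 and 7.65 against 7.52, 7.61, 7.63 and 7.65 (-0.07), and Ube3a, the ubiquitin ligase of Angelman syndrome, 10.76, 10.88, 10.9 and 10.92 against 10.86, 10.86, 10.87 and 10.88 (0.00). Both overlapped. Snhg14, the noncoding transcript between Ube3a and Snrpn in gene order, rose from 8.38 to 9.11 (0.73, SE 0.0648, limma adjusted p = 2.44e-05).

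At the Kcnq1 cluster 2 of 8 measured genes rose, Cdkn1c and Phlda2, 1 fell, Kcnq1ot1, and 5 were not called. Kcnq1, the potassium channel gene that gives the cluster its name, was dim at 4.8, 4.84, 5.06 and 4.81 with luciferase esiRNA and 4.94, 5.03, 4.82 and 4.77 with Ctr9 esiRNA (0.01, SE 0.0775). Slc22a18, a transporter-like gene between Cdkn1c and Phlda2, read 7.25, 7.14, 7.1 and 7.09 against 7.1, 6.96, 7.14 and 7.04 (-0.08, SE 0.0574). In both the groups overlapped. The tetraspanin gene Cd81 read 12.03, 12.03, 12.07 and 12 against 11.88, 11.99, 12.01 and 11.94 (-0.08), and Tssc4 8.77, 8.78, 8.8 and 8.86 against 8.73, 8.75, 8.76 and 8.83 (-0.04). These overlapped too. Nap1l4, a nucleosome assembly gene, read 10.78, 10.84, 10.74 and 10.85 against 10.68, 10.7, 10.7 and 10.73. Its groups lay apart, by 0.10 (SE 0.0445), without reaching the threshold (limma adjusted p = 0.129).

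**Figure D3:**
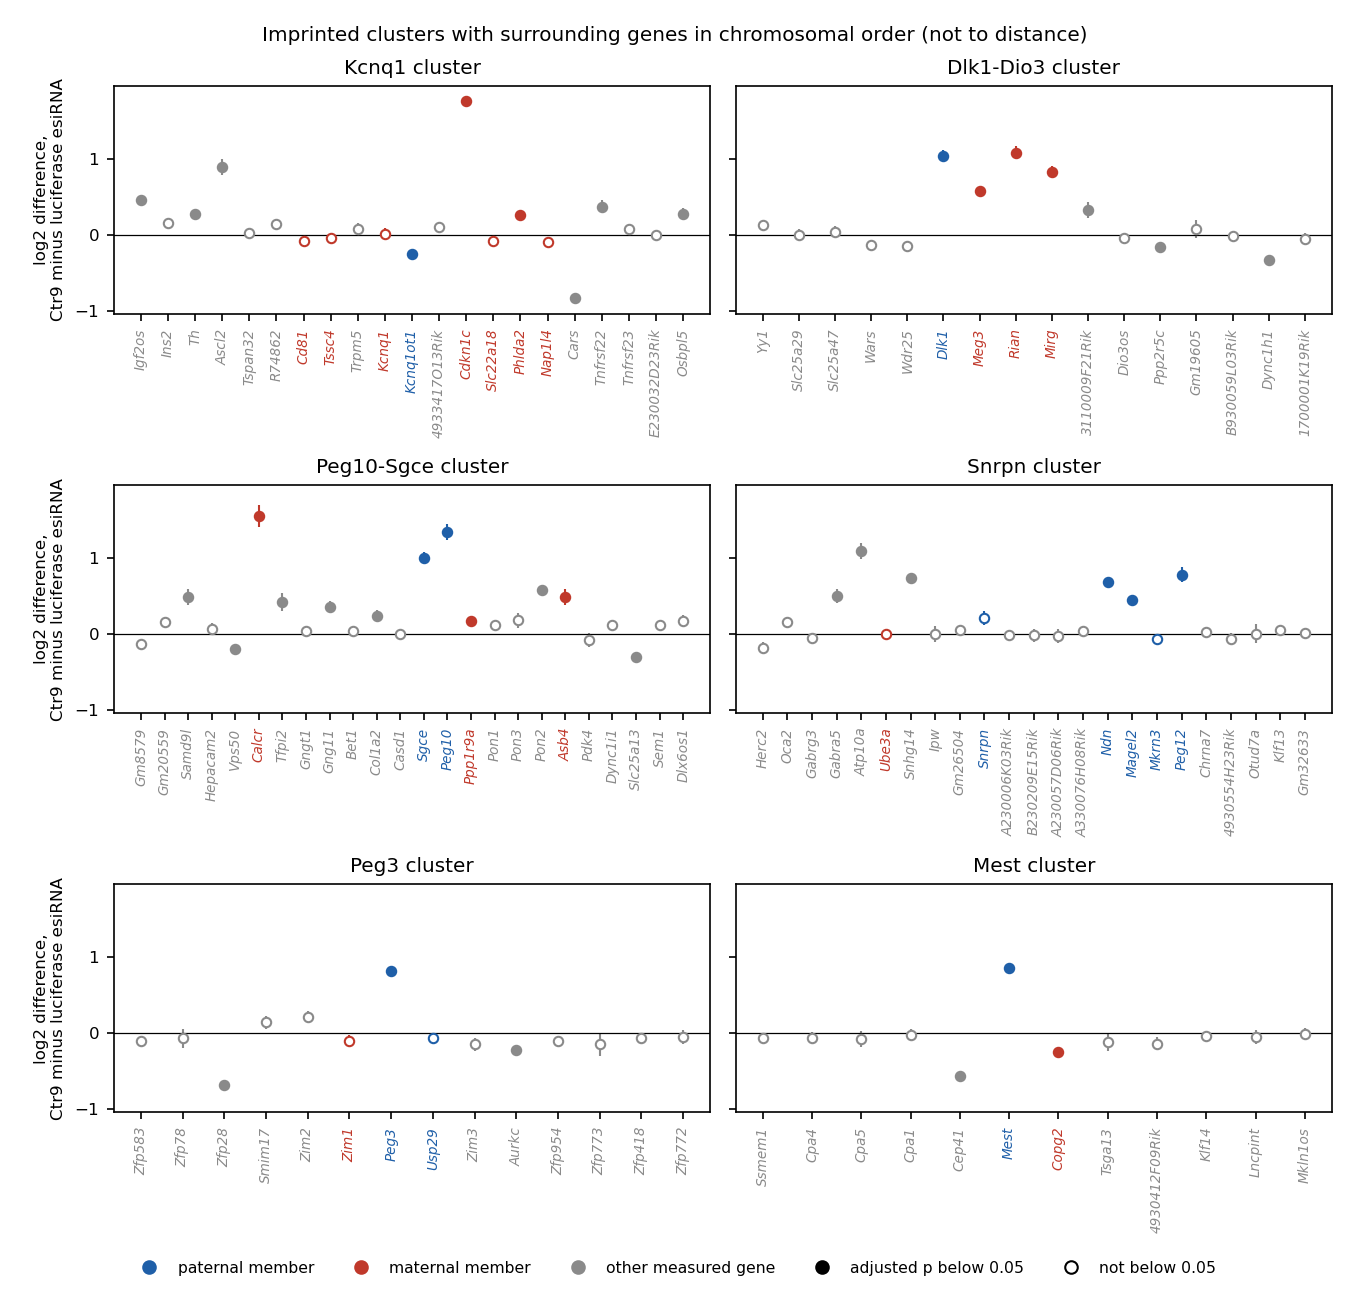
Log2 difference (vertical axis, bars are SE) of the measured genes of 6 imprinted clusters and of 5 measured genes on each side, in chromosomal order and not to distance; blue is paternal, red maternal, grey any other gene, and filled points have an adjusted p below 0.05. The raised points at Dlk1-Dio3 (0.57 to 1.08) lie above the other genes shown there. Of these, 3110009F21Rik inside the cluster is called higher (0.33), and Dync1h1 (-0.34) and Ppp2r5c (-0.16) outside it lower. At the Kcnq1 cluster the genes next to Cdkn1c (1.76), namely 4933417O13Rik (0.10) and Slc22a18 (-0.08), are not called. The called Kcnq1ot1 (-0.26) and Phlda2 (0.26) lie just beyond them.

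Around the clusters, rises and falls were about equally frequent. Of 176 genes that were among the 5 nearest measured on either side of a locus, 21 rose (11.9%) and 25 fell (14.2%). Their median was -0.011, and over all genes 15.8% were called higher and 15.0% lower. Of 27 other measured genes between the members of a cluster or overlapping them, 8 rose (29.6%) and none fell by limma. Their median was 0.083, and 1 was lower at an unadjusted p below 0.05. Those 8 were, besides Snhg14 and Airn, the antisense transcript Igf2os (0.46), the paraoxonase gene Pon2 (0.58), the inhibitor gene Tfpi2 (0.42), the G protein gene Gng11 (0.36), the collagen gene Col1a2 (0.24) and the dim 3110009F21Rik (0.33). Airn, Pon2 and Tfpi2 are also on the list of other imprinted genes, so the 8 are not all non-imprinted genes. The sides of Igf2 and the Kcnq1 cluster share genes, and Igf2os and R74862 are counted in both the 176 and the 27. Among the outer genes the furthest apart were Atp10a beside Ube3a (1.09) and Cobl beside Grb10 (-1.12), both reported as imprinted in some tissues. Next came Ascl2 (0.89, limma adjusted p = 0.000136), also reported as imprinted, between Igf2 and the Kcnq1 cluster. Of the rest Cars, a tRNA synthetase gene beside the Kcnq1 cluster, fell furthest (-0.84, SE 0.0668). Of the 10 outer genes of the Kcnq1 cluster, 5 rose, 1 fell and 4 were not called. Blcap, the gene that contains Nnat in its intron, was not called (-0.12). These surrounding genes were picked after their values were seen.

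Different probe sets of a gene gave the same direction where they were called. The 40 genes have 103 probe sets, of which 50 were called higher and 6 lower, against 11.8% and 13.1% of all probe sets. Of 24 genes with several probe sets, none had calls in both directions, 6 had every probe set called the same way and 3 had none called. The size of a difference varied with the probe set. Meg3 had 8 of 11 probe sets called higher (0.14 to 0.87 over all 11) and Rian 4 of 4 (0.28 to 1.08). The 5 bright Ndn probe sets agreed closely, at 0.64 to 0.69, and the 3 dim ones, below 4, were not called. Peg3 likewise had 3 bright probe sets at 0.74 to 0.88 and 2 near 3 that were not called. For Ube3a the brightest was not called (0.00) while 2 of the other 5 were called higher, both at 0.23. Inpp5f, uncalled by its brightest, had a second probe set called higher (0.44, limma adjusted p = 0.0107). Kcnq1ot1 ranged from -0.26 to 0.24 over 6 probe sets, with only the brightest called.

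**Figure D4:**
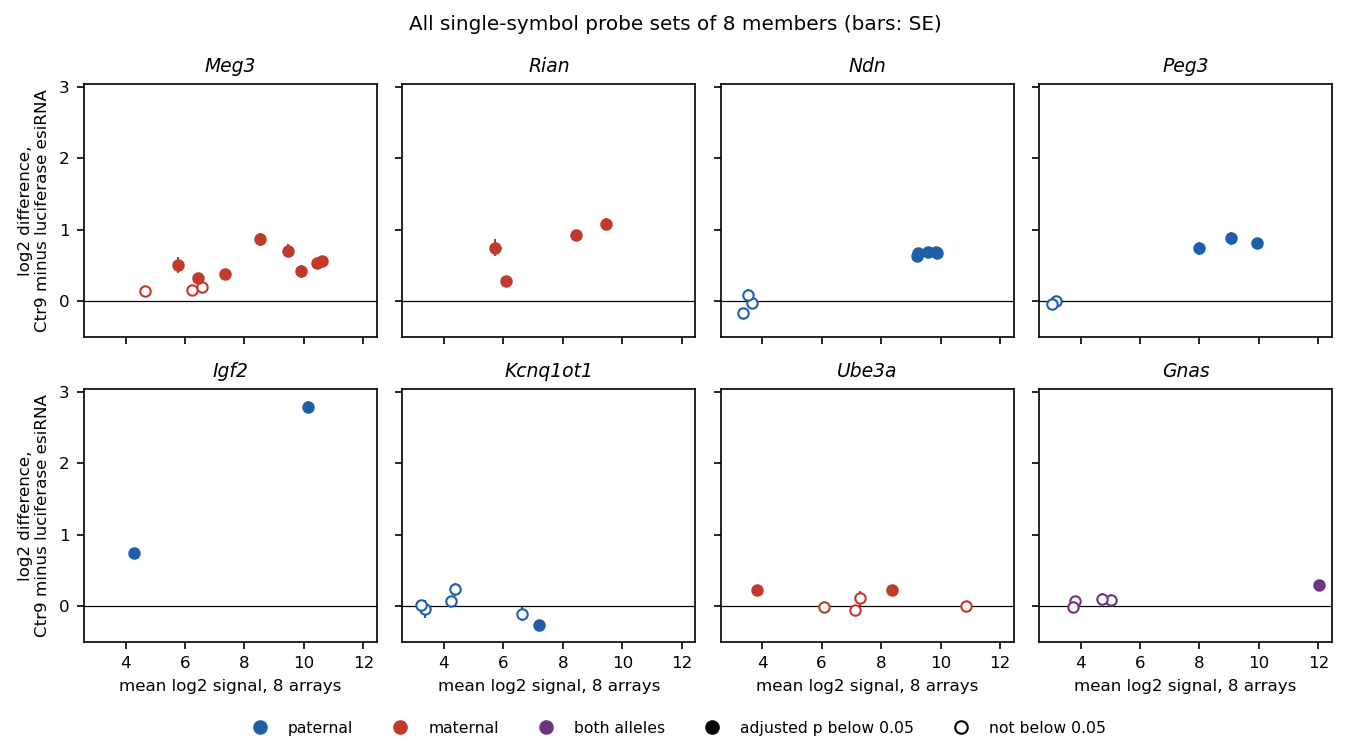
Each probe set of 8 imprinted genes, by its mean log2 signal over the 8 arrays (horizontal axis) and its log2 difference (vertical axis, Ctr9 esiRNA minus luciferase esiRNA, bars are SE); filled points have an adjusted p below 0.05. The bright probe sets of Ndn (0.64 to 0.69) and Peg3 (0.74 to 0.88) lie together and their dim ones lie near 0, while Igf2 has 2 probe sets at 0.74 and 2.79.

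Upstream windows were compared over all genes in the RefSeq table. It held 33 of the measured imprinted genes, with 52 windows of 250 bases, among 27025 genes and 32851 windows. By its window with the most CG, the median imprinted gene called higher held 10 CG, those called lower 16.5, those not called 14, and all genes 6. The range was 0 to 40 CG over all windows taken for these genes. The imprinted genes have more windows per gene than all genes, so shares and medians per gene are not like for like. TGCCGC on either strand was present in a window of 6 of the 33 genes (18.2%), namely Calcr, Copg2, Meg3, Mest, Plagl1 and Zim1, against 9.84% of all genes and 8.68% of all windows. It was in 4 of 19 genes called higher, 1 of 4 called lower and 1 of 10 not called. A match is a string of letters, and no binding or methylation was measured.

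Of 26 measured genes of the machinery that sets and keeps imprints, 7 rose and 7 fell (26.9% each), and 25 of the 26 were above the median signal, where 20.9% of genes were called higher and 21.2% lower, so the counts are near the background. The list mean was 10.4 to 10.44 in the luciferase arrays and 10.42 to 10.44 in the Ctr9 esiRNA arrays. The de novo methyltransferase gene Dnmt3b rose (1.52, SE 0.0522, limma adjusted p = 9.33e-08), as did its cofactor gene Dnmt3l (0.63, SE 0.0661). Tet2 (-1.09, SE 0.068) and Tet1 (-0.57, SE 0.0596), which encode enzymes that oxidise methylcytosine, fell. Zfp57, the zinc finger protein that protects imprints, read 8.98, 9, 9.02 and 9.01 with luciferase esiRNA and 8.53, 8.35, 8.41 and 8.29 with Ctr9 esiRNA. It fell by 0.60 (SE 0.0555, limma adjusted p = 3.21e-05), without overlap. The maintenance methyltransferase gene Dnmt1 fell by a smaller amount (-0.20), and Dppa3, which protects methylation in the zygote, rose (0.21). Trim28, the corepressor that Zfp57 recruits, was not called (-0.12, limma adjusted p = 0.0615), and neither were Uhrf1 (-0.00), which brings Dnmt1 to replicated DNA, and the insulator gene Ctcf (0.08).

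Imprinted genes outside the 44 were less one-sided in their counts. Of 29 measured, 12 rose (41.4%) and 7 fell (24.1%), at a median of 0.14, against 15.8% and 15.0% of all genes. Those with the smallest adjusted p were Cobl (-1.12, SE 0.0472), an actin nucleator gene, Xist (-1.08, SE 0.0504), the RNA that silences an X chromosome, Sfmbt2 (0.70, SE 0.0427), a Polycomb gene of the placenta, Trappc9 (-0.70, SE 0.0607), a trafficking gene, and Ampd3 (-0.92, SE 0.0868), an AMP deaminase gene. In the IGF pathway around Igf2, 9 of 13 measured genes rose (69.2%) and none fell by limma, at a median of 0.31. At an unadjusted p below 0.05, 0 were lower. Of the 13, 11 were above the median signal, where 20.9% of genes were called higher. Those with the smallest adjusted p were the binding protein genes Igfbp3 (1.45, SE 0.0552) and Igfbp4 (1.01, SE 0.0941), the receptor gene Igf1r (0.57, SE 0.0448), the substrate gene Irs2 (0.66, SE 0.0652) and Igf2bp1 (0.31, SE 0.044), which encodes a binding protein of Igf2 mRNA. Igf2r, which clears the ligand, fell as given above.

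Markers of other cell types in which imprinted genes are abundant were checked. Most trophoblast markers rose, while most extraembryonic endoderm markers were not called. Of 13 trophoblast markers measured, 9 rose (69.2%) and none fell by limma, at a median of 0.89, against 15.8% and 15.0% of all genes. At an unadjusted p below 0.05, 1 was lower. The list mean was 6.39 to 6.49 in the luciferase arrays and 7.34 to 7.35 in the Ctr9 esiRNA arrays. The smallest adjusted p belonged to Krt18 (2.39), Krt8 (2.61), Plac1 (1.5), Cdx2 (1.39) and Krt7 (1.04), while Elf5 (4.18 and 4.23) and Tpbpa (4.33 and 4.33) stayed near the lower quartile of probe set signal, 4.211, in both groups. Of 15 markers of extraembryonic endoderm, 4 rose (26.7%), 1 fell (6.67%) and 10 were not called, at a median of 0.00022. Their list mean was 6.09 to 6.15 and 6.25 to 6.34, with Foxa2 (1.98), Dab2 (1.26), Sparc (0.36) and Amn (0.29) higher, Hnf4a (-0.16) lower, and Gata4 (0.07), Gata6 (-0.12) and Sox17 (-0.24) not called. The part of these cell types in the rises of Igf2, Cdkn1c, Peg10 and the other imprinted genes was not tested.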

How the data were processed

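Biotin-labelled RNA of 8 samples was hybridised to one-colour Affymetrix arrays, 1 per sample, after column purification and DNase treatment, per the labels. The authors deposited log2 signals per probe set. The submitters' processing notes name GCOS 1.4 and RMA, with settings not given in the sources used here. Background subtraction and equalising of arrays by RMA compress differences of low signals and would hide a shift common to every gene.

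No further scaling was applied. Of 45101 probe sets, 64 manufacturer controls were left out and 45037 tested; 34945 carry 1 gene symbol in the platform annotation, 932 several, and 9160 are unnamed here. Of the 1-symbol probe sets, 34741 were found by Entrez identifier in the RefSeq gene table (GRCm38.p6), used for names and gene order only. Among tested probe sets 456 values are empty, 4 of them in probe sets of imprinted genes, and fits used the values left. In those 4 groups the values left were nearly identical (SD 0.00355 to 0.00731), so their spread may be understated. Groups were compared with limma 3.58.1 in R 4.3.3 (lmFit, eBayes) and Benjamini-Hochberg adjusted p below 0.05; the SE printed is the moderated one. The fit was tested on simulated data. Upstream windows and microRNAs are RefSeq's, matched by symbol and strand; figures were drawn with matplotlib 3.10.9.

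The imprinted genes and all other lists were chosen with earlier results of these data known. Array values are given for imprinted genes called with a difference of at least 0.5 and for uncalled ones at the same locus. From each other list up to 5 called genes with the smallest adjusted p are named, and for the imprint machinery also Zfp57, Trim28, Dppa3, Dnmt1, Uhrf1 and Ctcf. All ES cell markers and all called fibroblast markers are named. Marker genes named beside these as dim or not called were chosen after their values were seen. Zfp42, Ascl2, Pdgfra and Col1a2 each stand in more than 1 list or locus. As alternatives, dim probe sets were left out, arrays were rescaled or weighted, the variance prior was trended and robust, replicate numbers entered as a block, single arrays were omitted, all probe sets per gene were averaged and the threshold was made stricter; leaving out luciferase arrays 1 and 2 or 3 and 4 was added after seeing the data. Deviations from the group means of same-numbered arrays correlated at -0.078 to 0.063, so the numbers do not pair the samples.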

Additional observations from a re-analysis of the deposited data

Results flagged for a closer look

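Of 78 groups of 4 values tested among the imprinted genes, 4 held 1 array far from the other 3, and chance gives about 1 in 20 such groups; the 2 groups with an empty value were not tested. For Copg2, luciferase replicate 2 was the highest at 9.37, with the other controls at 9.24 and 9.25, and the fall of Copg2 was called without it as well. For Grb10, Ctr9 esiRNA replicate 3 was the lowest at 11.70, against 11.84 to 11.86. For Mirg, Ctr9 esiRNA replicate 2 was the highest at 8.38, against 8.21 to 8.23. For Kcnq1, which was not called, luciferase replicate 3 was the highest at 5.06, against 4.80 to 4.84. The 4 values come from 4 different arrays.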

How the results depend on the processing

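Of the 28 called imprinted genes, 23 kept their call under every alternative in which they could be tested, and 26 did so when single arrays were left out. Leaving out 1 array gave 23 to 24 genes called higher and 3 to 4 called lower. Kcnq1ot1, Ppp1r9a, Asb4, Gnas and Impact lost their calls as given with their values. With the replicate block, 23 were called higher and 4 lower; Ppp1r9a lost its call (limma adjusted p = 0.0597) and no other call changed. Of the 12 uncalled genes, Nap1l4 and Inpp5f were called with only probe sets above the median signal (limma adjusted p = 0.0423 and 0.0442) and with the trended robust prior (0.0275 and 0.0354), Inpp5f also with the mean of its probe sets (0.0201), and Snrpn without Ctr9 esiRNA replicate 2 (0.049). The paternal median of 0.67 became 0.41 when all probe sets per gene were averaged, dim ones included. The maternal median of 0.094 became 0.013 without probe sets below the lower quartile of signal, which drops Asb4, and 0.40 with only genes imprinted in many tissues. The number of arrays and the compression of low signals limit the precision, most of all for the 8 imprinted genes below the median signal.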
